A study of Mus musculus with 12 samples.

Results

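The genes of MHC class I antigen presentation did not differ detectably between the epidermis of WT and Pparg-/-epi mice, although they varied together from mouse to mouse. The genes were 10 chosen by name: the heavy chains H2-K1 and H2-D1, their light chain B2m, the peptide transporter subunits Tap1 and Tap2, the loading factor Tapbp, the immunoproteasome subunits Psmb8, Psmb9 and Psmb10, and the transactivator Nlrc5. All 10 were among the 14533 genes of the counts table. None of the 10 was altered between the genotypes, against 10.3% of all genes, and none had groups that did not overlap, against 7.90%. For a list of 10, counts of 0 are close to these shares. The 95% interval of every one lay within a log2 fold change of 0.6 either way, as it did for 45.2% of all genes.

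RNA was sequenced from scrapings of non-lesional dorsal skin of 6 WT and 6 Pparg-/-epi mice. All 12 mice were C57BL/6 and carried Pparg flox/flox, so that the groups differed in the Cre transgene: the WT siblings were Cre-/-, and the Pparg-/-epi mice were Cre+/- with Cre driven by the Krt14 promoter, which is active in basal keratinocytes of epidermis and hair follicle. Pparg encodes the lipid-activated nuclear receptor PPARγ. Mice were 8 to 13 weeks old, with 3 female and 3 male WT and 4 female and 2 male Pparg-/-epi mice. The scrapings reached the superficial dermis, and the Cre leaves Pparg intact in cells that are not of the Krt14 lineage. In such bulk samples, fewer cells of a type and less RNA per cell cannot be told apart.

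The WT libraries held 10120840 to 16947632 counts each, those of Pparg-/-epi mice 11272135 to 18851255, and RNA integrity numbers ran from 5.7 to 8.6. The count over the whole Pparg gene was 0.533 to 14.3 CPM (counts per 1000000, median 2.39) in WT and 1.33 to 6.49 CPM (median 4.05) in Pparg-/-epi libraries; since Cre removes part of the gene only, this count does not check the deletion. Keratinocyte markers (7 of 7 measured) summed to 20050 to 46586 CPM in WT and 31216 to 52417 CPM in Pparg-/-epi libraries, while WT replicate 2 had the lowest keratinocyte sum and the highest macrophage sum of all 12. The sebaceous gland list had 5 of 7 genes altered, all lower, and the mast cell list 5 of 5, all higher, against 10.3% of all genes. Of the WT mice, 4 of 6 came from breeding number 226, which no Pparg-/-epi mouse had. What part cell makeup or breeding has in the values below was not tested, beyond the fit with breeding numbers as 2 blocks.

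Class I molecules present peptides from a cell's own proteins to CD8 T cells. Proteasomes cut proteins into peptides, TAP carries the peptides into the endoplasmic reticulum, tapasin holds TAP and empty heavy chains together until a peptide binds, and the heavy chain with β2-microglobulin then goes to the cell surface. Interferons and NLRC5 are among the factors that raise the amount. NLRC5 has no DNA-binding domain of its own and acts through RFX, CREB/ATF and NF-Y factors bound at a conserved promoter module of X and Y boxes. Keratinocytes carry class I constitutively and raise it on exposure to interferon γ.

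The heavy and light chain genes share that module. The 250 bases before the start site of the following 3 genes are shown for the letters they hold of elements described for class I genes. They were taken from RefSeq on GRCm38.p6, 5′ to 3′ on the gene's strand, from chr17:34000334-34000583 (minus strand) for H2-K1, chr17:35262844-35263093 (plus strand) for H2-D1 and chr2:122147437-122147686 (plus strand) for B2m. Capitals mark, on either strand, the letters GAANNGAAA (the core of an interferon response element) and the same with 1 more A before the NN, GGGNNTTCC (an NF-κB site), TGACG (the core of an X2 box, a CREB/ATF site) and ATTGG (a Y box, the inverted CCAAT of NF-Y).
H2-K1: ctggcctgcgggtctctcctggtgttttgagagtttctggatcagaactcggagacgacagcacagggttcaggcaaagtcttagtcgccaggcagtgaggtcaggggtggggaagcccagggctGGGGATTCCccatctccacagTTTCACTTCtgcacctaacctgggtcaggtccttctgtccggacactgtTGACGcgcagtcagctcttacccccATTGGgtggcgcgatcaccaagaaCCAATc
H2-D1: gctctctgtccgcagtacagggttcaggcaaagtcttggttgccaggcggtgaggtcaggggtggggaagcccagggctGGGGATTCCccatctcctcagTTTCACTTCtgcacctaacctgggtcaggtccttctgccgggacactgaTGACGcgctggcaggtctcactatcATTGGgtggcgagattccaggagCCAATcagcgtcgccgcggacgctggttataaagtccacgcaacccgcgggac
B2m: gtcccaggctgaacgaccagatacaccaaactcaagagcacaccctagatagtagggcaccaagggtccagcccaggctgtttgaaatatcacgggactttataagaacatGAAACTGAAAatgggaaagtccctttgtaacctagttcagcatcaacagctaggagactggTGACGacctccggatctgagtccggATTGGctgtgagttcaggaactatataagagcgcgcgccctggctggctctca
The letters were chosen with these sequences in view, and a match is a description, not a bound site. Of 203 aligned bases, 177 were the same in H2-K1 and H2-D1 (87.2%). Both held the interferon and NF-κB letters close to each other, on the minus and plus strand respectively. GAANNGAAA occurred in 7.30% and GGGNNTTCC in 5.61% of the same windows of 27025 genes, and among the 8 class I genes with a window in the table both were found in H2-K1 and H2-D1 alone. The form with 1 more A, in 3.46% of all windows, was found among them in B2m alone, on the plus strand 139 bases before the start site.

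The X2 and Y cores stood at the same distance in all 3 genes. They are set out below from X2 to Y, with H2-M3, a non-classical class I heavy chain gene that has the same spacing.
H2-K1: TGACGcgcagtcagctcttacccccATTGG
H2-D1: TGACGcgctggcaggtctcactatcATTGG
B2m: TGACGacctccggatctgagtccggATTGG
H2-M3: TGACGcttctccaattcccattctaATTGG
In each the cores (capitals) were separated by 20 bases. They lay at chr17:34000359-34000388, chr17:35262993-35263022, chr2:122147609-122147638 and chr17:37270188-37270217, beginning 55, 101, 78 and 46 bases before the start site. TGACG alone was in 19.8% and ATTGG alone in 37.5% of all windows. The pair on one strand 20 bases apart was in 26 of 27025 (0.0962%). This spacing was read from the class I genes themselves, so its share is a description and no test. With any spacing of 15 to 30 bases the pair was in 151 windows (0.559%). Of the 20 genes in the counts table with the 20-base spacing, 1 was altered between the genotypes (5.00%, against 10.3% of all genes). Altered means a change by 0.6 or more on the log2 scale with an edgeR adjusted p under 0.05. H2-K1, H2-D1, B2m and H2-M3, none of them altered, are among the 20. The share thus partly counts them again, and no contrast with all genes is drawn from it. Tap1, Psmb9 and Tapbp held 1 or both cores without the 20-base spacing. The Tap1 and Psmb9 windows overlap on opposite strands, and the cores in them are the same bases.

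Most of the genes lie in the MHC on chromosome 17 (mm10). Tapbp is at chr17:33919478-33929290 and H2-K1 at chr17:33996012-34000333, followed by a tight group of Psmb9 (34182099 to 34187330), Tap1 (34187556 to 34197225), Psmb8 (34198195 to 34201454) and Tap2 (34204479 to 34216321), with H2-D1 further on at chr17:35263094-35267497. Psmb9 and Tap1 are divergent genes with 225 bases between them. B2m is at chr2:122147687-122153082, and Nlrc5 (chr8:94472763-94527272) and Psmb10 (chr8:105935728-105938392) are on chromosome 8. Heavy chain genes are alike in sequence: 3.1% of the 75-base stretches of H2-K1 transcripts and 5.4% of those of H2-D1 also occurred in transcripts of other genes, where reads that mapped to several places were removed. The other genes shared none, except Tapbp with 1.1%.

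Levels between genes were compared per length, as RPKM (CPM per kilobase of the gene's exons). B2m was highest at 3206 ± 745 RPKM (SD over 12 libraries), then H2-K1 at 971 ± 192 and H2-D1 at 248 ± 51.4. These 3 did not overlap each other or the rest, in any library. Tap1 (56.2 ± 12.6), Tapbp (54.3 ± 9.21), Psmb8 (49.9 ± 12.7), Nlrc5 (36.8 ± 6.30), Psmb9 (32.6 ± 9.09) and Tap2 (32.4 ± 6.00) followed, and each overlapped its neighbour in this order. Psmb10, at 10.7 ± 2.57 RPKM, was below Tap2 in all 12 libraries. The order put mRNA for the chains of the class I molecule well above that for the machinery that fills it, with H2-K1 at the 99.6th and Psmb10 at the 56.6th percentile of all genes listed.

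Across all genes, edgeR's quasi-likelihood test with Benjamini-Hochberg adjustment called 1493 of 14533 altered (10.3%), where altered means past 0.6 on the log2 scale in either direction, with an adjusted p under 0.05. Of these, 754 were higher (5.19%) and 739 lower (5.08%) in Pparg-/-epi mice. Groups did not overlap for 7.90% of all genes and for 0 of the 10 class I genes. The count of class I genes altered was also 0 with edgeR's likelihood ratio test and with DESeq2, and 0 of the 10 had an unadjusted p under 0.05 with any of these tests. Their median log2 fold change was 0.06 against -0.01 over all genes, with 6 above 0 and 4 below.

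**Figure D1:**
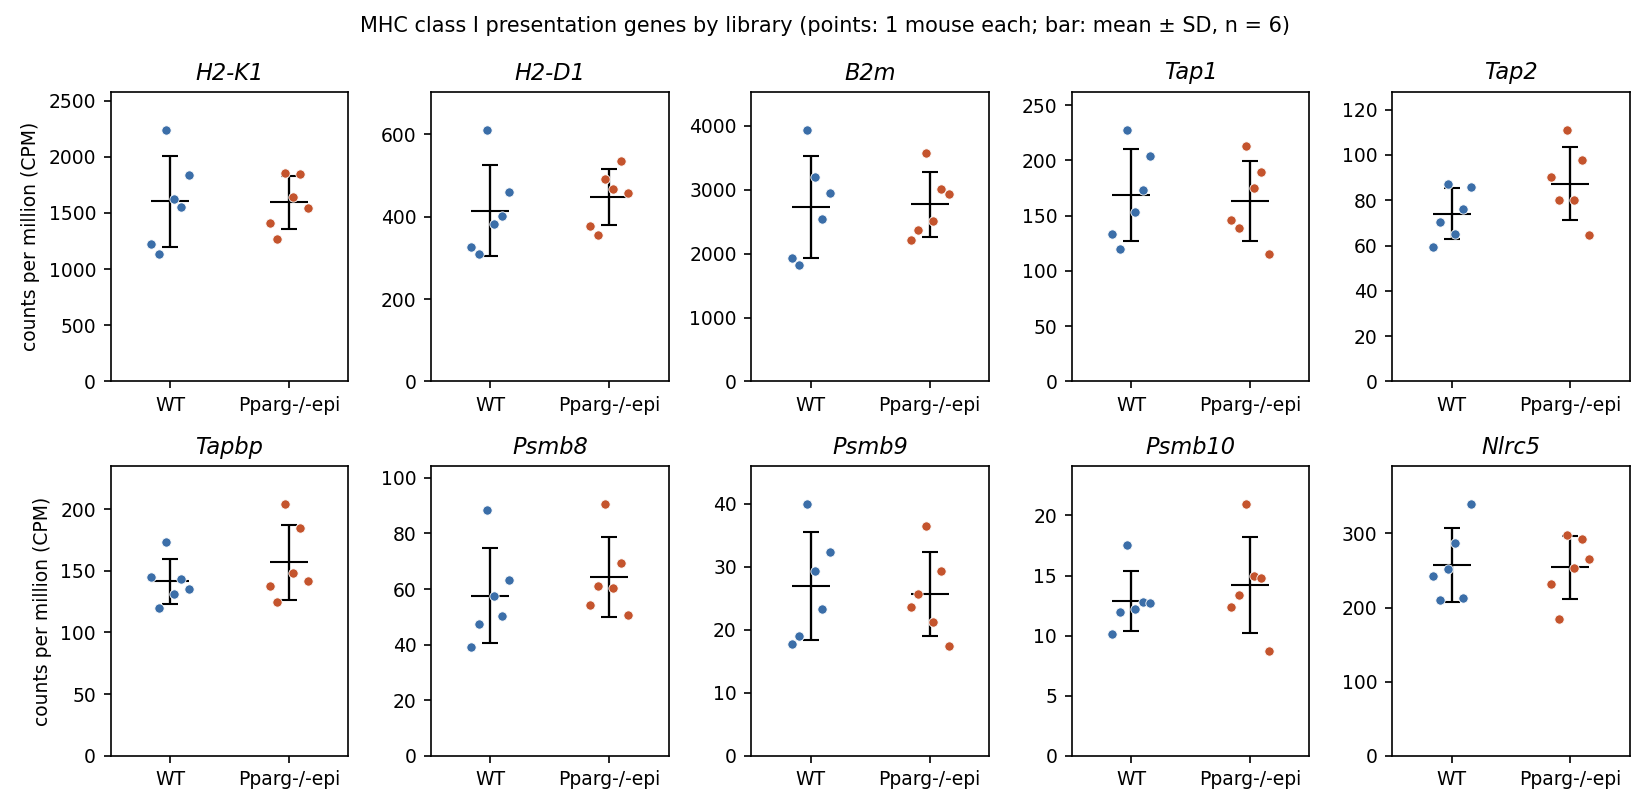
CPM (linear axis from 0) of the 10 class I presentation genes in each of the 6 WT and 6 Pparg-/-epi libraries. Points are single mice, drawn in replicate order, and bars give the mean and SD. The groups overlap in every panel, and WT replicate 3 and Pparg-/-epi replicate 9 lie at or near the top of most.

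H2-K1, the classical heavy chain of the K locus, had 1137 CPM in the lowest WT library, a median of 1590 and 2240 in the highest, against 1269, 1595 and 1854 in Pparg-/-epi libraries. The Pparg-/-epi libraries thus all fell inside the WT range. The means were 1602 ± 406 and 1594 ± 235 CPM (SD, n = 6 each), a log2 fold change of -0.01 with a 95% interval of -0.38 to 0.37 (edgeR adjusted p = 0.986). H2-D1, the heavy chain of the D locus, ran from 309 (median 392) to 611 CPM in WT and from 356 (median 463) to 535 CPM in Pparg-/-epi libraries, again inside the WT range. Its log2 fold change was 0.11, with an interval of -0.25 to 0.47 (edgeR adjusted p = 0.718). B2m, the light chain that all class I heavy chains need to fold, ran from 1827 (median 2744) to 3940 CPM in WT and from 2218 (median 2724) to 3576 CPM in Pparg-/-epi libraries. Its medians were nearly equal, and the log2 fold change was 0.02 (-0.42 to 0.46, edgeR adjusted p = 0.964). For these 3 genes the interval allows at most a 1.39-fold rise, reached by H2-D1, and a fall to no less than 0.749 of the WT level, reached by B2m.

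Of the genes that carry and load peptides, Tap2 had the largest difference of the 10. Tap2 ran from 59.4 (median 73.4) to 87.3 CPM in WT and from 64.6 (median 85.2) to 111 CPM in Pparg-/-epi libraries. In 3 of 6 Pparg-/-epi libraries the value passed the WT range, and the others lay within it. The log2 fold change of Tap2 was 0.24 (-0.05 to 0.53), with the lowest p among the class I genes (0.103 before adjustment, edgeR adjusted p = 0.269). Its partner Tap1, with which it forms the transporter, ran from 119 (median 163) to 228 CPM in WT and from 116 (median 161) to 213 CPM in Pparg-/-epi libraries. These ranges were nearly the same, and the log2 fold change of Tap1 was -0.05 (-0.44 to 0.35, edgeR adjusted p = 0.900). Tapbp, which encodes tapasin, ran from 120 (median 139) to 174 CPM in WT and from 125 (median 145) to 204 CPM in Pparg-/-epi libraries, a log2 fold change of 0.15 (-0.13 to 0.43, edgeR adjusted p = 0.488).

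The 3 immunoproteasome subunits replace constitutive catalytic subunits when interferon is present and change which peptides are made. Psmb8 ran from 39.2 (median 53.9) to 88.4 CPM in WT and from 50.7 (median 60.7) to 90.6 CPM in Pparg-/-epi libraries, with a log2 fold change of 0.16 (-0.25 to 0.58, edgeR adjusted p = 0.632). Psmb9 ran from 17.7 (median 26.3) to 40.0 CPM in WT and from 17.4 (median 24.7) to 36.4 CPM in Pparg-/-epi libraries, with a log2 fold change of -0.07 (-0.54 to 0.41, edgeR adjusted p = 0.878). Psmb10 ran from 10.1 (median 12.5) to 17.6 CPM in WT and from 8.67 (median 14.1) to 20.95 CPM in Pparg-/-epi libraries, with a log2 fold change of 0.14 (-0.28 to 0.56, edgeR adjusted p = 0.685). In each case a single library of either group set the upper end, WT replicate 3 and Pparg-/-epi replicate 9.

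Nlrc5, the transactivator, ran from 210 (median 247) to 340 CPM in WT and from 185 (median 259) to 297 CPM in Pparg-/-epi libraries. The means of 257 ± 49.4 and 254 ± 41.96 CPM gave a log2 fold change of -0.02 (-0.33 to 0.29, edgeR adjusted p = 0.951). Its highest WT library was replicate 6, unlike the other genes.

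An interval within 0.6 either way was found for 45.2% of all genes and for 10 of the 10 class I genes. Leaving out 1 library at a time left 7 to 9 of the 10 inside, and the fit with breeding numbers as 2 blocks left 7. With female mice alone (3 WT and 4 Pparg-/-epi) 0 of the 10 intervals were that narrow, so this bound rests on the full set of libraries. No class I gene was altered under any of the 22 alternatives, and the lowest adjusted p was 0.123, for Tap2 without Pparg-/-epi replicate 12. The genotype difference also did not differ detectably between the sexes: in edgeR's quasi-likelihood test of the interaction the lowest class I adjusted p was 0.895 (0.124 unadjusted, Tapbp), and 0 of 14533 genes passed, with 741 at an unadjusted p under 0.05.

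**Figure D2:**
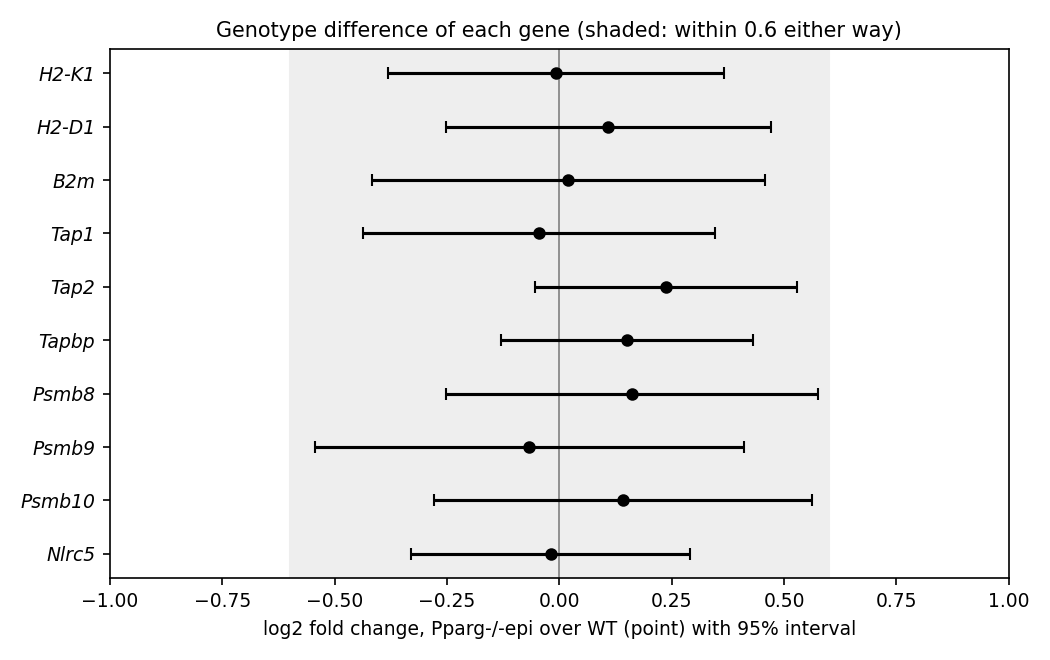
Log2 fold change of Pparg-/-epi over WT (points) with its 95% interval (bars) for each class I gene, from edgeR's quasi-likelihood fit over 12 libraries. The shaded band is 0.6 either way, and all 10 intervals lie inside it, from -0.54 (Psmb9) to 0.58 (Psmb8).

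Ratios within a library do not depend on how libraries are scaled, and 4 were tested by exact two-sided permutation over the 12 libraries (smallest possible p 0.00216), with Benjamini-Hochberg adjustment over the 4. Each immunosubunit was set against the constitutive subunit it replaces. The log2 ratio per length of Psmb8 to Psmb5 was 0.45 ± 0.41 in WT and 0.40 ± 0.29 in Pparg-/-epi libraries (exact p = 0.829, adjusted 0.829). That of Psmb9 to Psmb6 was -1.54 ± 0.33 and -1.69 ± 0.48 (exact p = 0.528, adjusted 0.750), and that of Psmb10 to Psmb7 was -3.47 ± 0.11 and -3.35 ± 0.50 (exact p = 0.563, adjusted 0.750). Psmb8 mRNA was thus above that of Psmb5 in most libraries, while Psmb9 and Psmb10 mRNA was below that of their partners in all. The Psmb5 value is less certain, since 36.8% of its 75-base stretches occur in transcripts of other genes. Without Pparg-/-epi replicate 12, the lowest of all for Psmb10, the difference of the Psmb10 to Psmb7 ratio was 0.28 (exact p = 0.0173, unadjusted), against 0.11 with it. Without Pparg-/-epi replicate 9, the highest, this difference was -0.031. These are 2 of the recounts that left out each library in turn, and no shift is read from that p.

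The ratio of H2-K1 to H2-D1 varied least of the 4. Its log2 value per length was 2.03 ± 0.08 in WT (1.95 to 2.17) and 1.91 ± 0.06 in Pparg-/-epi libraries (1.83 to 1.99). In 4 of 6 Pparg-/-epi libraries it was below every WT library, and the groups overlapped through the other two. The difference of -0.12 ± 0.04 (SE) had an exact p of 0.0195 and an adjusted p of 0.0779 over the 4 ratios, so it did not pass the correction. The 2 genes share part of their sequence, as given above.

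**Figure D3:**
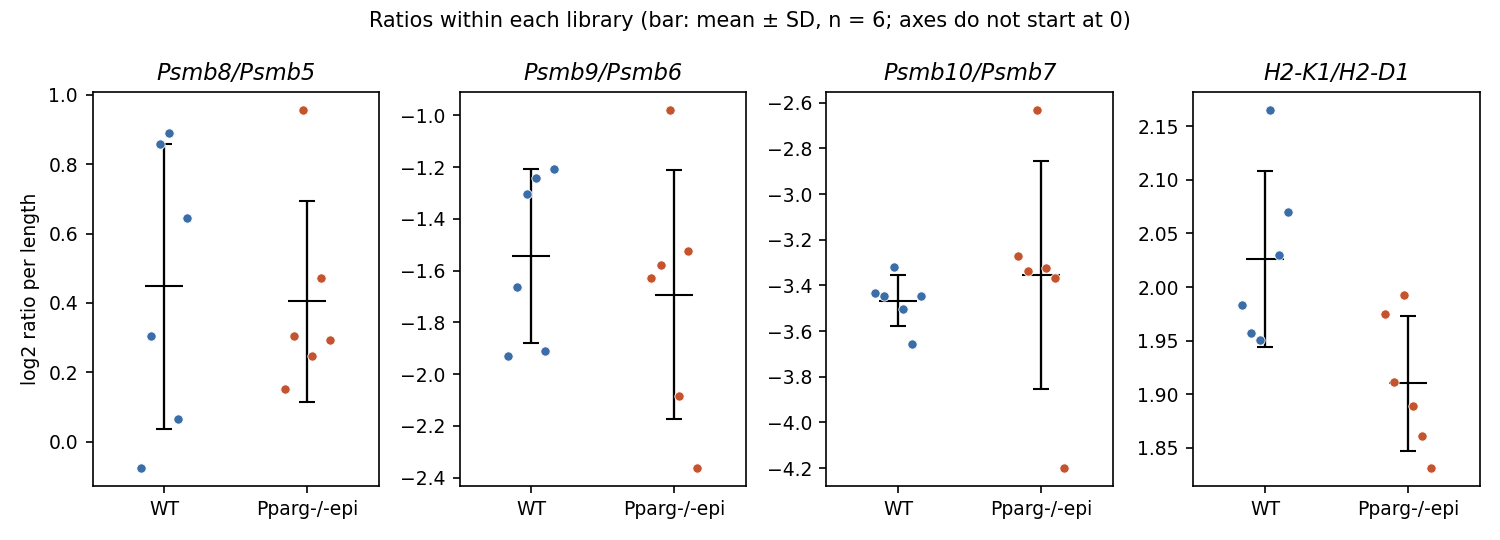
Log2 ratio per length of each immunosubunit to its constitutive partner and of H2-K1 to H2-D1, in each library (points) with the mean and SD (bars). The groups overlap in all 4 panels, and 4 of 6 Pparg-/-epi libraries lie below every WT library for H2-K1 over H2-D1.

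Within each genotype the class I genes moved together. The deviations of log2 CPM from the genotype mean had a median Pearson correlation of 0.731 over the 45 pairs of class I genes (0.202 to 0.970, 12 libraries), and 41 of the 45 were over 0.5. These points share library, depth and tissue makeup, and the values are a description. Of the genes outside the list, 11.4% had a correlation over 0.5 with the mean of the class I genes, by the same deviations. H2-K1 and H2-D1 were the closest pair (0.970), then Psmb8 and Psmb9 (0.949). The divergent neighbours Tap1 and Psmb9 had 0.868. Nlrc5 stood furthest from the rest, with 0.538 to the mean of the other genes, while the remaining 9 had 0.766 to 0.933. Its pairs with Psmb10 (0.202), Tap2 (0.340), Psmb8 (0.426) and Psmb9 (0.451) were the 4 not over 0.5, and those with H2-K1 (0.662), B2m (0.607) and H2-D1 (0.583) were its highest.

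The same libraries were often the highest or lowest across the genes. WT replicate 3 was the highest WT library for 9 of the 10 genes, and Pparg-/-epi replicate 9 the highest of its group for 9. WT replicates 2 and 1 were the lowest for 6 and 4 genes, and Pparg-/-epi replicates 12, 8 and 7 for 5, 4 and 1. Summed over the 10 genes, WT libraries held 3871 to 7678 CPM and Pparg-/-epi libraries 4616 to 6895 CPM. WT replicate 3 had the lowest total count and Pparg-/-epi replicate 9 the highest sum of the type I interferon response list (832 CPM against 230 to 438 CPM in the other 11 libraries). WT replicate 3 had the highest sum of that list in its group, at 364 CPM. WT replicates 1 and 2 were the WT mice outside breeding number 226 and had the highest RNA integrity numbers of the WT libraries (7.4 and 8.6). They also held the highest WT sums of the fibroblast list (34585 and 10524 CPM against 1019 to 8254 CPM), the macrophage list (415 and 830 CPM against 94.7 to 210.2 CPM) and the endothelial list (84.4 and 141 CPM against 8.62 to 38.0 CPM). The part of depth, breeding, RNA integrity, these cell types or the interferon response in these deviations was not tested. Over the 45 pairs of class I genes, the median correlation of the deviations (0.73) was 0.69 to 0.77 when 1 library was left out. It was 0.64 without WT replicate 3 and Pparg-/-epi replicate 9, and 0.49 over the 8 libraries left without these and WT replicates 1 and 2. These recounts were added after the data were seen. The spread was not unusual: the within-group SD of log2 CPM had a median of 0.321 for the class I genes and 0.300 for all genes.

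**Figure D4:**
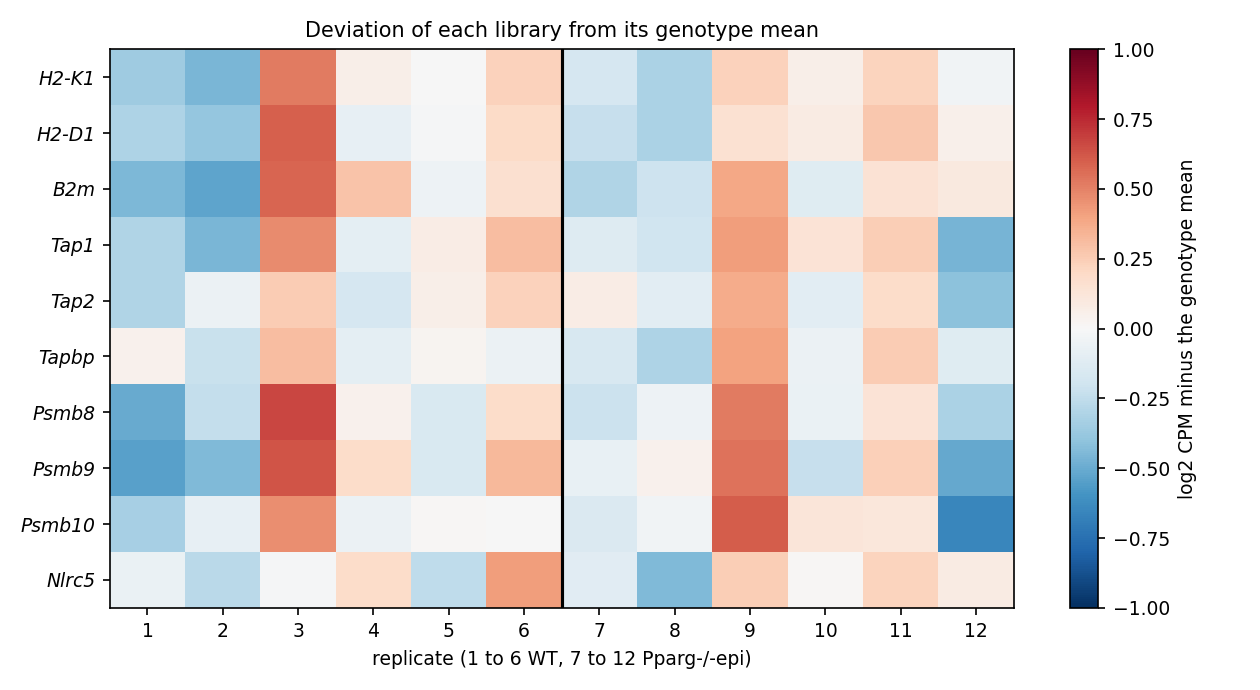
Log2 CPM of each class I gene minus its genotype mean (colour) in the 6 WT libraries (replicates 1 to 6) and the 6 Pparg-/-epi libraries (7 to 12). Columns are of 1 colour for most genes: replicates 3 and 9 are high, and replicates 1 and 2 low.

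Outside the list, the genes most like it over the 12 libraries, by Pearson correlation of log2 CPM with the mean of the standardized class I genes, were H2-T10 (0.921), Oas1b (0.914), H2-Q4 (0.912), Apol7a (0.904) and Irf9 (0.904), then Zc3h6, H2-T23, Insl6, Bcl11b and Oas1g (0.888 to 0.824). Of these 10, 3 are further class I heavy chain genes, and Irf9 is the DNA-binding part of the complex that answers type I interferon. None of the 10 was altered. By deviations from the genotype means the first was Oas1g (0.937), and 2 of the 10 were altered: Apol9a rose (log2 fold change 2.27, edgeR adjusted p = 0.0276) and Flrt1 fell (-1.18, edgeR adjusted p = 0.00994). Parts of H2-T10 (16.05%) and Oas1g (36.9%) sequence occur in other transcripts, so their counts are less certain. Counts were low for Insl6 (mean 0.635 CPM) and Oas1g (2.74 CPM), which limits the precision of their correlations.

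For other steps of the pathway, the share of all genes altered was 10.3%, and 1 gene in a list of 8 or 7 is close to it. Of 8 genes that supply or trim peptides 1 rose, Tpp2, a cytosolic peptidase (70.1 ± 7.42 to 107 ± 14.8 CPM, log2 fold change 0.62, edgeR adjusted p = 0.00218). Psme3 (0.30, edgeR adjusted p = 0.0131) and Thop1 (0.39, 0.0186) passed the p threshold but not the fold threshold, while Psme1 and Psme2, the interferon-induced proteasome activator, had log2 fold changes of -0.07 and 0.19 that passed neither. Of 7 other chaperones of folding and loading 1 rose, Calr, which encodes calreticulin (396 ± 59.3 to 602 ± 40.8 CPM, 0.60, edgeR adjusted p = 0.00330). Pdia3, the ERp57 partner of tapasin, had a log2 fold change of 0.34 (edgeR adjusted p = 0.0240). The 7 loading genes summed to 1381 to 1697 CPM in WT and to 1804 to 2002 CPM in Pparg-/-epi libraries, which did not overlap. Tpp2 was altered in 15 and Calr in 14 of 22 alternatives. Most of these losses were at the fold threshold: the log2 fold change of Calr ranged from 0.53 to 0.81 with a highest edgeR or DESeq2 adjusted p of 0.0224, and that of Tpp2 from 0.50 to 0.67 with a highest adjusted p of 0.0816. None of the 14 constitutive core subunits was altered, with a list median of 0.08 (2 at an unadjusted p under 0.05).

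Of the 14 transcription factors of class I promoters 0 were altered, against 10.3% of all genes. An unadjusted p under 0.05 was found for 5 of them, and the likelihood ratio test and DESeq2 each called 2. Irf1, an activator of class I promoters, went from 26.5 ± 6.67 to 41.3 ± 13.8 CPM (log2 fold change 0.64, edgeR adjusted p = 0.0650). The log2 fold changes of Irf2 (-0.28), Rela (0.30) and Nfkb1 (0.33) did not pass the test either. Rfx5, Rfxank and Rfxap, which form the RFX complex to which NLRC5 binds, had log2 fold changes of -0.30, -0.01 and -0.23, and Nfya, Nfyb and Nfyc, the NF-Y subunits, -0.08 to 0.04. None of these 6 passed the test.

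Of 26 other class I and class I-like chains 13 were measured, and 3 were altered, in both directions, against 10.3% of all genes. H2-T24 rose from 1.41 ± 0.932 to 5.25 ± 2.82 CPM (log2 fold change 1.87, edgeR adjusted p = 0.0149), and Procr, the endothelial protein C receptor with a class I-like fold, rose from 3.93 ± 1.82 to 9.93 ± 4.22 CPM (1.33, edgeR adjusted p = 0.0268). H2-M5 fell from 45.7 ± 22.6 to 19.8 ± 6.81 CPM (-1.21, edgeR adjusted p = 0.0342) and was altered in 10 of 22 alternatives, H2-T24 in 20 of 21. H2-M3, shown above with the class I promoter module, had 10.2 ± 2.59 and 6.72 ± 1.94 CPM (-0.60, edgeR adjusted p = 0.109). H2-Q4 and H2-T23, the most abundant of the list, had -0.04 and 0.08. MHC class II, the separate system that presents material taken up from outside, had 0 of 10 measured genes altered (2 at an unadjusted p under 0.05) and a median of -0.13.

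Some interferon response genes rose, and the difference between these lists and the class I genes was not tested. The share of all genes altered was 10.3%, and the interferon γ count of 2 in 21 is close to it. Of 21 measured genes of the interferon γ list, 2 were altered: the chemokines Cxcl9 (8.03 ± 4.97 to 35.98 ± 35.8 CPM, log2 fold change 2.18, edgeR adjusted p = 0.0173) and Cxcl10 (3.40 ± 2.33 to 14.2 ± 9.37 CPM, 2.07, edgeR adjusted p = 0.0186), both higher. The list's median log2 fold change was 0.70, with 19 of 21 above 0. Of 21 measured type I response genes 6 rose, among them the antiviral GTPase Mx1 (1.66, edgeR adjusted p = 0.00134) and the transcription factor Irf7 (1.49, edgeR adjusted p = 0.00698), with a list median of 0.84. Both counts moved with the test and the libraries. The interferon γ count was 7 by the likelihood ratio test, 9 by DESeq2 and 0 with female mice alone. When 1 library was left out it was 1 to 10, with 1 without Pparg-/-epi replicate 9, 7 without Pparg-/-epi replicate 12 and 10 without WT replicate 2. The type I count was 8 by the likelihood ratio test, 9 by DESeq2, 2 with sex as a covariate or with breeding blocks, and 1 with female mice alone. When 1 library was left out it was 2 to 9, with 2 without Pparg-/-epi replicate 11 or WT replicate 1, 4, 5 or 6, 3 without Pparg-/-epi replicate 9, and 9 without WT replicate 2. Cxcl9 in Pparg-/-epi replicate 9 was 108 CPM. Without that library the class I genes had 0 altered as well.

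On the side of the cells that read class I, 4 of 8 measured CD8 T cell and natural killer genes were altered, against 10.3% of all genes. The count of this list was 2 to 5 when 1 library was left out (2 without Pparg-/-epi replicate 7 or 11 or WT replicate 5, 5 without WT replicate 2), and 1 with female mice alone. It was also 1 with at least 10 counts in every library, a filter that removed Cd8a, Cd8b1 and Gzmb before the test. The co-receptor chains that bind class I rose. Cd8a went from 0.678 ± 0.425 to 3.20 ± 1.18 CPM (log2 fold change 2.20, edgeR adjusted p = 0.00437). Cd8b1 went from 0.181 ± 0.157 to 1.38 ± 0.403 CPM (2.82, edgeR adjusted p = 0.00512). The groups did not overlap for either gene, as for 7.90% of all genes. Gzmb, a granule protease, rose (1.71) and Klrc1, a natural killer receptor chain, fell (-1.002). The list as a whole did not lean 1 way: 4 of the 8 lay above 0 and 4 below, with a median of -0.17. Its sum was 16.5 to 39.5 CPM in WT and 19.2 to 31.8 CPM in Pparg-/-epi libraries. The counts are low, 0 to 21 for Cd8a and Cd8b1 in WT libraries. General T cell markers did not rise with them: of 6 measured, Cd3e fell (-0.75) and the others were not altered, with a list median of -0.50. The T cell list summed to 150 to 258 CPM in WT and 183 to 243 CPM in Pparg-/-epi libraries. Most of the T cell sum was Thy1 (117 ± 53.9 and 157 ± 26.0 CPM, log2 fold change 0.43, not altered), while 4 of the 6 genes lay below 0. The Langerhans and dendritic list, of which 2 of 4 genes rose (Ly75 and Mfge8, both by 0.92), summed to 99.4 to 151 and 166 to 201 CPM. Most of the difference of that sum was Mfge8 (53.9 ± 15.3 to 102 ± 10.6 CPM), which encodes a secreted glycoprotein. Cd207, the defining marker of Langerhans cells, was at 49.3 ± 13.5 and 49.4 ± 12.7 CPM, respectively (edgeR adjusted p = 0.996), and Itgax was not altered (0.50, edgeR adjusted p = 0.0526). The part of these cells in the class I values was not tested.

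**Figure D5:**
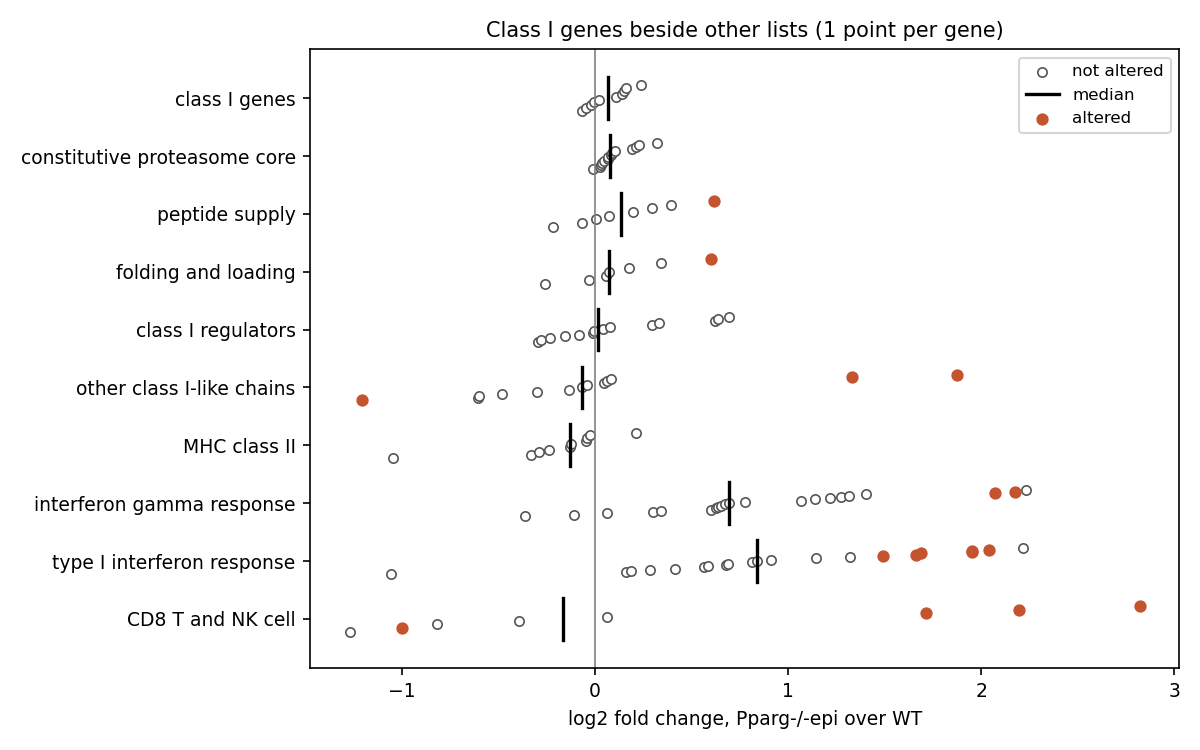
Log2 fold change of Pparg-/-epi over WT for each measured gene (points) of the class I list and of 9 other lists, with the list median (black line). Filled points were altered. Class I genes lie from -0.07 to 0.24, while 19 of 21 interferon γ and 20 of 21 type I response genes lie above 0.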

How the data were processed

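Total RNA was sequenced as paired reads after poly(A) selection (KAPA mRNA HyperPrep). Per the labels and the study's methods, the authors aligned reads with STAR 2.5.2b to mm10, removed reads that mapped to several places and counted the rest per refGene gene with featureCounts (Subread 1.5.1). The strand setting is not given in the sources used here. The deposited counts are raw whole numbers for 14533 genes over 0.5 CPM in at least 6 libraries, and 2800 blank rows were dropped.

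Counts were scaled by TMM and compared between the genotypes, without covariates, by the quasi-likelihood test of edgeR (version 4.0.16 in R 4.3.3). P-values were adjusted by Benjamini-Hochberg across the 14533 genes. Intervals are 95%. CPM and RPKM were computed on TMM library sizes, RPKM with the table's gene length, and log2 CPM with a prior count of 2. The alternatives were the likelihood ratio test, DESeq2 1.42.0, other scaling, a minimum of 10 counts in every library, covariates, female mice alone and leaving out each library. The procedure was tested on simulated data. The members and lists were chosen with earlier results of these data known. All class I genes are named. So are, of each other list, at most 4 altered genes of largest change, any measured gene of the regulator, peptide supply, loading and heavy chain lists, and the 10 genes most alike. Some others were named besides, among them Thy1, Cd207 and Itgax. Motif letters, H2-M3's sequence and the shared stretches (75 bases, GENCODE M21 transcripts) were added after the data were seen. Promoters were matched by symbol: 8 of 10 genes had one, Tap2 and Nlrc5 did not. The values of 1 gene of the lists are not reported here.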

Additional observations from a re-analysis of the deposited data

Results flagged for a closer look

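1 value of the class I genes stood apart in its group. Psmb10 in WT replicate 3 was at 17.6 CPM, and its gap to the nearest WT library was 0.639 of the group's range, above Dixon's 95% critical value of 0.625 for 6 samples. Of 28 groups examined this was the 1 that passed, where chance gives about 1 in 20. The same library was the highest WT library for 9 of the 10 class I genes.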

How the results depend on the processing

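None of the 10 class I genes was altered under any of the 22 alternatives, and no altered call changed direction. No paired analysis was run. The genotypes share 1 breeding number, 222, held by WT replicate 2 and Pparg-/-epi replicate 10 alone. The number of all genes altered was 1493, 651 with female mice alone and 1116 to 2249 when 1 library was left out, the highest without WT replicate 2. For the genes of the other lists together it was 34, 9 with female mice alone, and 22 to 55 when 1 library was left out (22 without Pparg-/-epi replicate 11 or WT replicate 5, 55 without WT replicate 2). The number of class I intervals within 0.6 either way was 10, 0 with female mice alone, and 7 to 9 when 1 library was left out; these recounts were added after the data were seen. The H2-K1 to H2-D1 difference of -0.12 was -0.13 with female mice alone (exact p = 0.171) and -0.13 to -0.09 when 1 library was left out. The Psmb10 to Psmb7 difference ranged from -0.031 to 0.28 when 1 library was left out. Female mice alone leave 3 against 4 mice, so fewer samples enter; the cause of the other shifts was not tested. Covariates of RIN, age or sex and breeding blocks left 7 to 10 of the intervals within 0.6. Low counts limit the precision for H2-T24, Cd8a, Cd8b1 and Gzmb.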
